A study of Arabidopsis thaliana with 6 samples.

Results

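Auxin synthesis, transport, conjugation and receptor genes were examined as a set of 34 *Arabidopsis thaliana* loci, chosen by gene identifier from a fixed list, out of 21799 genes with values in the expression table. They fall into 8 groups by role: 6 synthesis genes, 4 *PIN* efflux carriers of the plasma membrane, 3 other *PIN* genes, 3 AGC kinases, 4 influx carriers, 2 *ABCB* transporters, 7 *GH3* conjugating enzymes and 5 *TIR1*/*AFB* receptors. Of the 34, 33 had values, and all 33 passed the filter on low values. *GH3.4* (*AT1G59500*) had no row and was not analysed here. Inflorescences of Col-0 plants (wild type) and of a quadruple mutant carrying *bee1*, *bee3*, *stk* and *ces-4*, which lacks a MADS-domain factor (*STK*) and 3 related bHLH factors (*CES*, *BEE1*, *BEE3*), had been collected up to stage 12, before fertilization, and profiled by RNA sequencing. Each genotype had 3 biological replicates, each a pool of plants, so that all floral organs of several flower stages were mixed. The titles and the genotype tag name the *ces-4* allele, and the extraction notes name *ces-2*.

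Auxin (indole-3-acetic acid) is made from tryptophan through indole-3-pyruvic acid: TAA1 and its relative TAR2 make the intermediate and the YUCCA flavin monooxygenases convert it to auxin. AUX1 and the LAX proteins carry auxin into cells, while PIN and ABCB proteins carry it out, with the position of the PIN proteins set in part by the kinases PID, WAG1 and WAG2. GH3 enzymes join auxin to amino acids and so lower the free pool, and TIR1 and the AFB proteins are the F-box receptors through which auxin triggers the degradation of Aux/IAA repressors. In the pistil, local synthesis and transport of auxin are known to pattern the style, the carpel margins and the ovules.

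The values were given in CPM, reads scaled to the size of each library. Between 15.9 and 21.2 M reads per sample fell on the listed genes, and 3 reads, the smallest amount taken as detectable, corresponded to 0.138 to 0.185 CPM, a limit that covers counting error alone. No member with a row lay at or below this limit in any sample. The 4 mutated genes served as a check of the labels: mutant means stood at 19.9% (*STK*), 4.86% (*CES*), 25.2% (*BEE1*) and 3.54% (*BEE3*) of wild type, and all 4 were called. Markers of floral organs summed to 662 to 754 CPM in wild type and 743 to 806 CPM in the mutant, those of carpel margin, style and stigma to 157 to 161 and 151 to 170 CPM, and those of mature pollen to 1452 to 1965 and 1614 to 1901 CPM. Those of leaf summed to 5554 to 5957 CPM in wild type and 5439 to 7075 CPM in the mutant. Of the root markers *RHD6*, *PLT1*, *PLT2*, *CASP1* and *EXPA7* had no row, and *SCR* had 27.7 to 30.3 CPM in wild type and 27.0 to 27.6 CPM in the mutant. Of the seed markers *CRU1*, *CRU3*, *OLE1* and *LEC1* had none, and *FUS3* had 2.77 to 3.34 and 2.67 to 3.80 CPM. On the first principal component, which held 44.3% of the variance, wild-type replicate 2 stood apart at -38.59, against -10.14 and -9.106 for the other wild-type replicates. Mutant replicates 1, 2 and 3 stood at 18.55, 30.95 and 8.339, so that this component separated the genotypes. In these whole inflorescences, fewer cells of a type and less RNA per cell cannot be told apart.

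None of the 33 members passed the test over all genes. Differences were tested with limma-trend on log2(CPM + 0.5), and a gene was called at a Benjamini-Hochberg adjusted p under 0.05 over 21287 tested genes; by this rule 0.695% of all tested genes were called and 0 of 33 members, with a lowest limma adjusted p of 0.152. The p-values measure the spread between these samples only. At an unadjusted p under 0.05 there were 8 of 33 members (24.2%), against 9.31% of all tested genes. Of these 8, 5 were lower in the mutant (*GH3.2*, *GH3.3*, *GH3.6*, *GH3.17* and *AFB2*) and 3 higher (*YUC4*, *LAX3* and *PIN7*); over all tested genes 5.48% were lower at that limit. In 9 of 33 members (27.3%) the 3 values of the mutant were all above or all below the 3 of wild type, against 14.3% of all tested genes: *GH3.2*, *GH3.3*, *GH3.17*, *PIN4* and *AFB2* lay below wild type, and *YUC4*, *LAX3*, *PIN6* and *PIN7* above. All tested genes with the mutant values below the wild-type values made up 7.41%. Without wild-type replicate 2, 9 members had an unadjusted p under 0.05. Over the 6 fits that left out 1 sample each, 6 of the 8 members kept an unadjusted p under 0.05 in every fit.

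By role, the *GH3* genes had the lowest median. The 6 *GH3* genes with values had log2 fold changes from -0.82 to -0.23 with a median of -0.44, while the 27 members outside the *GH3* family had a median of 0.02, close to the median of 0.01 over all tested genes. Of those 27, 21 had a 95% interval that lay within 0.5 of 0 on the log2 scale, which bounds their change, and none of the 6 *GH3* genes did. Across all tested genes 14032 of 21287 had such an interval.

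**Figure D1:**
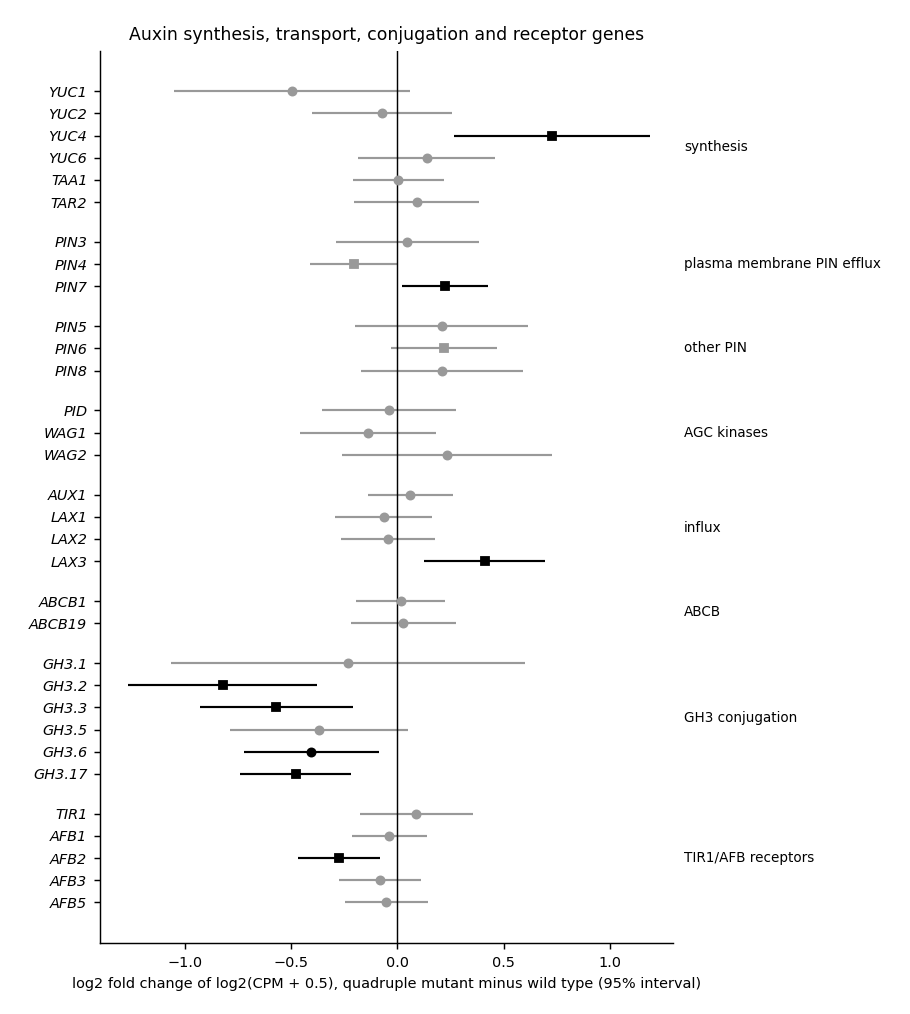
Log2 fold change of 32 members with values, quadruple mutant minus wild type on the log2(CPM + 0.5) scale, with its 95% interval from the limma fit over 3 samples per genotype. Members are grouped by role; black marks those with an unadjusted p under 0.05 and squares those whose genotypes do not overlap. All 6 *GH3* genes lie below 0, from -0.82 (*GH3.2*) to -0.23 (*GH3.1*), while most other groups straddle 0.

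The *GH3* genes encode acyl acid amido synthetases, and *GH3.1* to *GH3.6* are known as genes that auxin itself induces. *GH3.2* (*AT4G37390*, chr4:17579618-17582022, plus strand of TAIR10.1) showed the lowest fold change of all members. It was measured at 18.7, 20.7 and 17.5 CPM in wild-type replicates 1, 2 and 3 and at 10.8, 7.48 and 14.2 CPM in the mutant replicates. The highest mutant value lay below the lowest wild-type value, and the mutant mean of 10.8 ± 3.34 CPM (SD, n = 3) was 57.0% of the wild-type mean of 19.0 ± 1.63 CPM (SD, n = 3). The log2 fold change was -0.82 (SE 0.20, 95% interval -1.27 to -0.38, limma adjusted p = 0.152), and the adjusted p ranged from 0.0547 to 0.407 over 15 alternative settings.

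*GH3.3* (*AT2G23170*, chr2:9863855-9866562, minus strand) had 43.0, 58.1 and 36.3 CPM in wild type and 28.5, 28.3 and 33.9 CPM in the mutant. The genotypes did not overlap, and wild-type replicate 2 was well above the other wild-type samples. Its log2 fold change was -0.57 (SE 0.16, 95% interval -0.93 to -0.21, limma adjusted p = 0.238), and leaving out 1 sample at a time gave -0.72 to -0.39. *GH3.17* (*AT1G28130*, chr1:9825169-9828118, plus strand), whose enzyme is known to favour glutamate, had 37.3, 28.6 and 29.7 CPM in wild type and 21.2, 23.5 and 23.0 CPM in the mutant. Here the mutant samples were tight, at 22.6 ± 1.21 CPM (SD, n = 3), and all lay below wild type. This gave a log2 fold change of -0.48 (SE 0.12, 95% interval -0.74 to -0.22, limma adjusted p = 0.154).

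*GH3.6* (*AT5G54510*, chr5:22130964-22133688, minus strand), also known as *DFL1*, had 60.5, 48.0 and 48.9 CPM in wild type and 36.7, 34.3 and 48.1 CPM in the mutant. Mutant replicate 3 reached the range of wild type, so the genotypes touched. The fit put the log2 fold change at -0.41 (SE 0.14, 95% interval -0.72 to -0.09, limma adjusted p = 0.367). *GH3.5* (*AT4G27260*, chr4:13653579-13656285, plus strand), which also acts on salicylic acid and was the highest of the *GH3* genes per transcript length, had 80.0, 70.7 and 64.8 CPM in wild type and 58.1, 40.1 and 72.4 CPM in the mutant. The genotypes overlapped through mutant replicate 3, and the log2 fold change was -0.37 (SE 0.19, 95% interval -0.79 to 0.05, limma adjusted p = 0.606). *GH3.1* (*AT2G14960*) had low values, with a wild-type mean of 1.32 ± 0.910 CPM and a mutant mean of 0.985 ± 0.455 CPM (SD, n = 3 each), and the estimated log2 change of -0.23 had a 95% interval from -1.07 to 0.60.

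Summed over the 6 genes, *GH3* transcripts made up 240.2, 228 and 198 CPM in wild type and 157, 134 and 193 CPM in the mutant, so that each mutant sum lay below each wild-type sum. At an unadjusted p under 0.05, 4 of the 6 were lower in the mutant, against 5.48% of all tested genes. In 3 of the 6 the mutant values all lay below wild type, against 7.41% of all tested genes. The log2 fold change was below 0 for 6 of 6 genes, against 47.9% of all tested genes. It was below 0 for 5 of 6 without wild-type replicate 2 and for 5 of 6 without mutant replicate 2, the exception being *GH3.1*. The median over the 6 genes stayed between -0.56 and -0.41 over the 15 alternatives. Reads could be confused between these genes only over short stretches: 1.65% of the 50-base stretches of the *GH3.2* transcript occur in another gene's transcript (*GH3.3* or *GH3.4*), 0.338% of those of *GH3.3*, and none of those of *GH3.1*, *GH3.5*, *GH3.6* and *GH3.17*.

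**Figure D2:**
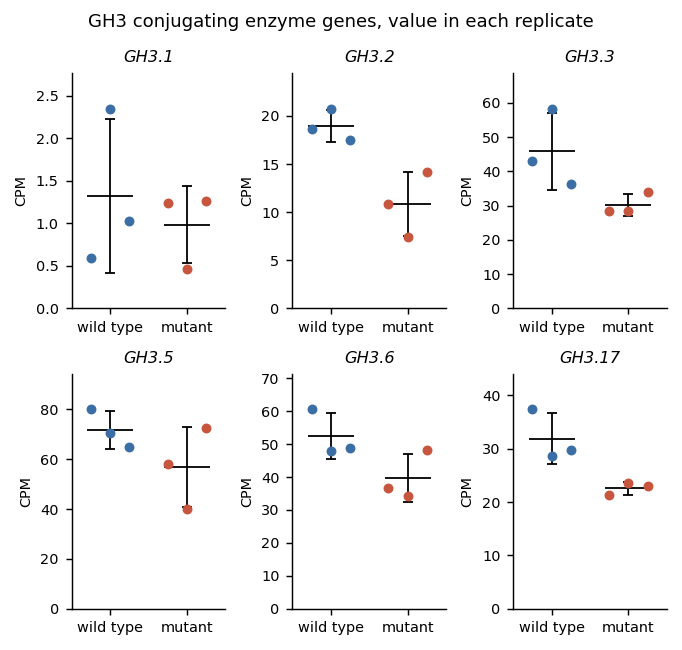
CPM of the 6 *GH3* genes with values, 1 point per replicate (replicates 1, 2 and 3 from left to right), with the mean and SD of each genotype as black bars (n = 3) and axes that start at 0. The mutant points of *GH3.2*, *GH3.3* and *GH3.17* all lie below wild type, while mutant replicate 3 of *GH3.5* (72.4 CPM) and *GH3.6* (48.1 CPM) reaches into the wild-type range.

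The 250 bases before the annotated start are shown for the 5 *GH3* genes with the higher levels, because the auxin response element was first defined in a *GH3* promoter of soybean and because these genes share the direction of their fold changes. Capitals mark TGTCTC, the auxin response element, and in *GH3.2* also CACGTG, the G-box that bHLH factors can bind; each runs 5′ to 3′ on the strand of the gene in TAIR10.1. The windows are chr4:17579368-17579617 (plus strand, *GH3.2*), chr2:9866563-9866812 (minus strand, *GH3.3*), chr4:13653329-13653578 (plus strand, *GH3.5*), chr1:9824919-9825168 (plus strand, *GH3.17*) and chr5:22133689-22133938 (minus strand, *GH3.6*).
GH3.2: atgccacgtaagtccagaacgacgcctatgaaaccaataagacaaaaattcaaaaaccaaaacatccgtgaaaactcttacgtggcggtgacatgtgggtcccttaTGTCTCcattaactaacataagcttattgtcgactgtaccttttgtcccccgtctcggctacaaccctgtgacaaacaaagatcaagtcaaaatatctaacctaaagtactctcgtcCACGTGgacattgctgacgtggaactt
GH3.3: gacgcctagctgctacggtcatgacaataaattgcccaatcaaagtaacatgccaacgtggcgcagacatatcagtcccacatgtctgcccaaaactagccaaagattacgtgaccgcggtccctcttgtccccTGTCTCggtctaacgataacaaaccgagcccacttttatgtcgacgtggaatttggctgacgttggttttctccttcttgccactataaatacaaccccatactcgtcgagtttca
GH3.5: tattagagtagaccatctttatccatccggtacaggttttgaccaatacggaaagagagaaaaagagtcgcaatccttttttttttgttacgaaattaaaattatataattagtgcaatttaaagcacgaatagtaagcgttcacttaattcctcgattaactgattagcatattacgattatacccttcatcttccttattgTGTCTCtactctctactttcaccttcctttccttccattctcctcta
GH3.17: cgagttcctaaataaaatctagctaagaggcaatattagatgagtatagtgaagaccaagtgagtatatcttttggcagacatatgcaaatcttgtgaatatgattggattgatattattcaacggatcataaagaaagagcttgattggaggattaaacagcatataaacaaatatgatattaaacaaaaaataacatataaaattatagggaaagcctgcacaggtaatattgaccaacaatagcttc
GH3.6: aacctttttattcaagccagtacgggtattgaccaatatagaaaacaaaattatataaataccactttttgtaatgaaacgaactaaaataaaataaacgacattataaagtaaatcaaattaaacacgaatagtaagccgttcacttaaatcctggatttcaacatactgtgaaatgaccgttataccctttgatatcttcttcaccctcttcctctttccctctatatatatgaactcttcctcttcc
The element begins 144 bases before the start in *GH3.2*, 116 in *GH3.3* and 47 in *GH3.5*, and the windows of *GH3.17* and *GH3.6* hold none.

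Over a window of 250 bases before to 50 after the start, TGTCTC on either strand was found in 4 of the 6 *GH3* promoters (*GH3.1*, *GH3.2*, *GH3.3* and *GH3.5*) and in 8 of 33 members (24.2%), against 13.7% of 20610 promoters of tested protein-coding genes. The other 4 members were *YUC2*, *TAR2*, *ABCB19* and *AFB5*. The high-affinity form TGTCGG was found in *LAX3* alone among members and in 5.42% of all promoters. CACGTG was found in *GH3.2* alone and in 8.80% of all, the CArG box of MADS-domain factors in *YUC2* alone and in 3.31% of all, and the E-box CANNTG, of which CACGTG is 1 form, in 23 of 33 members (69.7%) and in 61.9% of all. In the 250 bases before the start alone, TGTCTC was in 6 of 33 members and 10.6% of all promoters. These matches describe the letters in the windows.

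Among the synthesis genes, *YUC4* stood apart. *YUC4* (*AT5G11320*, chr5:3611247-3613640, minus strand), a YUCCA gene known to act in flower development together with *YUC1*, had 1.10, 1.54 and 0.807 CPM in wild type and 2.06, 2.24 and 2.27 CPM in the mutant. All mutant values lay above all wild-type values, and the mutant mean came to 190% of wild type. The estimate on the log2 scale was 0.73 (SE 0.21, 95% interval 0.27 to 1.19, limma adjusted p = 0.239), the highest of the members, and the scale understates changes at such low levels. *YUC1* (*AT4G32540*) was the lowest member per transcript length, with a wild-type mean of 0.641 ± 0.190 CPM and a mutant mean of 0.312 ± 0.167 CPM (SD, n = 3 each). Its mutant mean came to 48.7% of wild type, below the 57.0% of *GH3.2*, at a level that rests on few reads. The log2 fold change of -0.50 for *YUC1* had a 95% interval from -1.05 to 0.06, and the genotypes overlapped. With a pseudocount of 0.1 CPM its log2 fold change was -0.88.

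*TAA1* (*AT1G70560*, chr1:26604855-26607652, plus strand), the aminotransferase gene with the highest level per length of the synthesis group, had 47.1, 45.1 and 42.7 CPM in wild type and 43.4, 50.3 and 41.9 CPM in the mutant. The samples of both genotypes were interleaved, and the log2 fold change was 0.00 (SE 0.09, 95% interval -0.21 to 0.22, limma adjusted p = 0.995). *TAR2* (*AT4G24670*; wild type 26.01 ± 4.47 CPM, SD, n = 3) had a log2 fold change of 0.09, *YUC6* (*AT5G25620*; 13.8 ± 2.29 CPM) of 0.14 and *YUC2* (*AT4G13260*; 5.96 ± 0.859 CPM) of -0.07. Each of these 95% intervals included 0.

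The *PIN* efflux carriers of the plasma membrane had log2 fold changes on both sides of 0. *PIN3* (*AT1G70940*, chr1:26742940-26746469, plus strand), known for redirecting auxin in tropic growth and here the highest of its group per length, had 109, 73.9 and 90.5 CPM in wild type and 94.1, 107 and 80.4 CPM in the mutant. The replicates of each genotype spread widely and overlapped, with a log2 fold change of 0.05 (SE 0.15, 95% interval -0.29 to 0.38, limma adjusted p = 0.964). *PIN7* (*AT1G23080*, chr1:8180189-8183650, minus strand), the closest relative of *PIN3*, had 77.2, 72.5 and 65.4 CPM in wild type and 83.0, 88.5 and 79.5 CPM in the mutant. The lowest mutant sample lay just above the highest wild-type sample. The log2 fold change was 0.22 (SE 0.09, 95% interval 0.02 to 0.43, limma adjusted p = 0.473), and the unadjusted p reached 0.115 when 1 sample was left out.

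*PIN4* (*AT2G01420*, chr2:180033-183764, minus strand) had 33.9, 29.5 and 30.8 CPM in wild type and 27.8, 25.7 and 28.0 CPM in the mutant. The genotypes did not overlap, and the mutant mean of 27.2 ± 1.26 CPM (SD, n = 3) was 86.6% of the wild-type mean of 31.4 ± 2.25 CPM (SD, n = 3). The log2 fold change was -0.20 (SE 0.09, 95% interval -0.41 to 0.0046, limma adjusted p = 0.552).

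The gene next to *PIN4* differed far more than *PIN4* itself. *AT2G01422*, annotated as a non-coding RNA at chr2:183940-184734 on the plus strand, starts 175 bases from the start of *PIN4* and is transcribed away from it. It was measured at 38.1, 27.2 and 40.5 CPM in wild type and at 2.52, 1.44 and 1.01 CPM in the mutant. All mutant samples lay far below all wild-type samples, and the mutant mean came to 4.69% of wild type. The gene fell with a log2 fold change of -4.09 (SE 0.25, 95% interval -4.66 to -3.53, limma adjusted p = 4.7e-05) and was called in all 15 alternatives, with adjusted p-values up to 0.000932. It lies on a chromosome that carries none of the 4 mutated genes. Of the members with an unadjusted p under 0.05, *PIN7* and *GH3.17* lie 696617 and 943069 bases from *CES*, and *LAX3* lies 1438829 bases from *BEE3*. Whether position relative to the mutated genes bears on any of these values was not tested. The 175 bases between the 2 genes, chr2:183765-183939 of TAIR10.1 on the plus strand, are shown because both starts face them; the auxin response elements, the G-box and the CArG box were searched and none was found, so no letters are in capitals.
PIN4 to AT2G01422: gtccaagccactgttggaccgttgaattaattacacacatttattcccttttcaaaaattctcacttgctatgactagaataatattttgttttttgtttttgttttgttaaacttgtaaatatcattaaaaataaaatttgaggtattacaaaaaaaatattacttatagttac
Whether the non-coding RNA and *PIN4* bear on each other was not tested.

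The *PIN* genes outside the main plasma membrane group all had log2 fold changes above 0 of similar size, as did 11082 of 21287 tested genes in direction. *PIN6* (*AT1G77110*, chr1:28970714-28974805, plus strand), the highest of the 3 per length, had 9.01, 9.25 and 8.50 CPM in wild type and 9.95, 10.6 and 10.9 CPM in the mutant. The genotypes did not overlap, with a log2 fold change of 0.22 (SE 0.11, 95% interval -0.03 to 0.47, limma adjusted p = 0.610). *PIN5* (*AT5G16530*), a carrier of the endoplasmic reticulum, and *PIN8* (*AT5G15100*), its counterpart known from pollen, had wild-type means of 1.42 ± 0.221 and 2.32 ± 0.303 CPM (SD, n = 3). Their log2 fold changes were 0.21 and 0.21, with 95% intervals from -0.20 to 0.62 and from -0.17 to 0.59. Both genes overlapped between genotypes. Of the AGC kinases, *PID* (*AT2G34650*, chr2:14589736-14592140, minus strand), whose product phosphorylates PIN proteins, had 31.7, 35.2 and 27.9 CPM in wild type and 30.3, 36.7 and 25.6 CPM in the mutant. The order of the samples was mixed, and the log2 fold change was -0.04 (SE 0.14, 95% interval -0.36 to 0.27, limma adjusted p = 0.968). *WAG1* (*AT1G53700*; wild type 5.83 ± 0.689 CPM, SD, n = 3) had a log2 fold change of -0.14 and *WAG2* (*AT3G14370*; 4.32 ± 1.40 CPM) of 0.23, with intervals that included 0.

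Among the influx carriers, *LAX3* was the exception. *LAX3* (*AT1G77690*, chr1:29200417-29203418, minus strand), known from lateral root emergence, had 30.0, 21.4 and 23.5 CPM in wild type and 31.9, 32.3 and 34.9 CPM in the mutant. The mutant samples were close together and all lay above wild type, in which replicate 1 was the highest. The mutant mean came to 132% of wild type, and the log2 fold change was 0.41 (SE 0.13, 95% interval 0.13 to 0.70, limma adjusted p = 0.291). *AUX1* (*AT2G38120*, chr2:15972876-15977180, plus strand), the main influx carrier, had 154, 141 and 134 CPM in wild type and 143, 144 and 160 CPM in the mutant. These values overlapped, with a log2 fold change of 0.06 (SE 0.09, 95% interval -0.14 to 0.26, limma adjusted p = 0.901). *LAX1* (*AT5G01240*; wild type 27.0 ± 2.18 CPM, SD, n = 3) and *LAX2* (*AT2G21050*; 36.3 ± 4.00 CPM) had log2 fold changes of -0.06 and -0.04.

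Both *ABCB* efflux transporters had log2 fold changes close to 0. *ABCB19* (*AT3G28860*, chr3:10870005-10877578, minus strand), the member with the highest level per length, had 314, 326 and 264 CPM in wild type and 284, 300 and 336 CPM in the mutant. The genotypes were interleaved, with a log2 fold change of 0.03 (SE 0.11, 95% interval -0.22 to 0.27, limma adjusted p = 0.975). *ABCB1* (*AT2G36910*) had a wild-type mean of 230.3 ± 15.7 CPM and a mutant mean of 232.7 ± 16.8 CPM (SD, n = 3 each), with a log2 fold change of 0.02 and a 95% interval from -0.19 to 0.22.

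Of the receptors, *AFB2* had the smallest p. *AFB2* (*AT3G26810*, chr3:9867652-9870782, plus strand) had 39.5, 43.5 and 42.0 CPM in wild type and 35.3, 32.4 and 35.2 CPM in the mutant. All mutant values lay below wild type, with a spread of a few CPM in each genotype. The mutant mean came to 82.4% of wild type, and the log2 fold change was -0.27 (SE 0.08, 95% interval -0.47 to -0.08, limma adjusted p = 0.295). *TIR1* (*AT3G62980*, chr3:23273065-23276630, minus strand), the highest receptor per length, had 123, 108 and 133 CPM in wild type and 131, 111 and 146 CPM in the mutant. The samples overlapped, with a log2 fold change of 0.09 (SE 0.12, 95% interval -0.18 to 0.35, limma adjusted p = 0.889). *AFB1* (*AT4G03190*; wild type 77.8 ± 3.66 CPM, SD, n = 3), *AFB3* (*AT1G12820*; 68.1 ± 2.36 CPM) and *AFB5* (*AT5G49980*; 79.5 ± 3.34 CPM) had log2 fold changes of -0.04, -0.08 and -0.05. The end of *AFB1* overlaps *AT4G03180* by 51 bases and that of *AFB3* overlaps *AT1G12810* by 63 bases on the other strand, and each also overlaps an annotated long non-coding RNA without values here. In all, 16.5% of the 50-base stretches of *AFB1* and 27.6% of those of *AFB3* occur in another annotated transcript. The libraries were directional, but the strand setting of the counting is not given in the sources used here, so these 2 receptors are less certain.

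**Figure D3:**
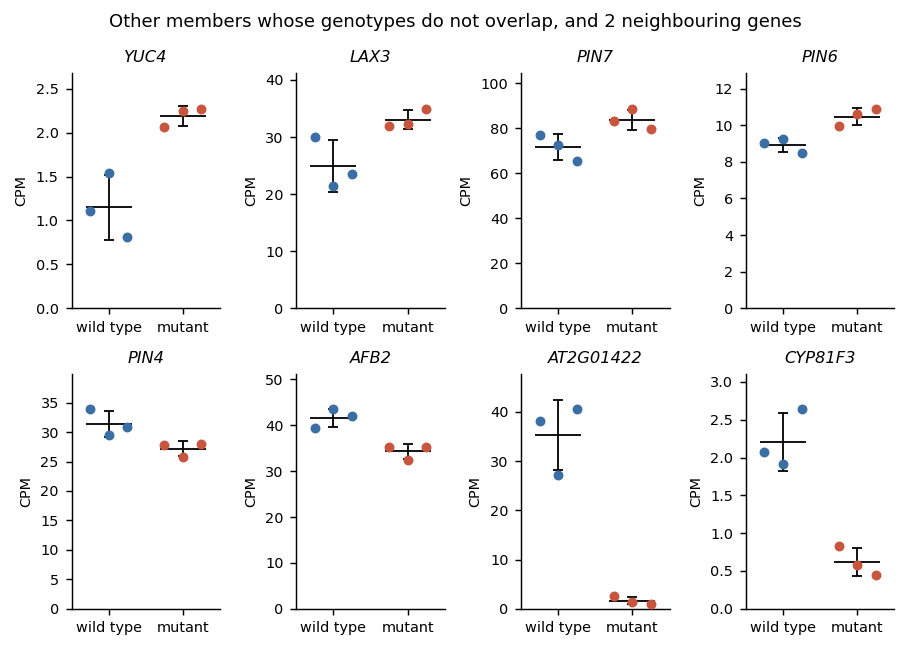
CPM of the 6 members outside the *GH3* family whose genotypes do not overlap, and of 2 called genes beside members, 1 point per replicate (replicates 1, 2 and 3 from left to right) with the mean and SD as black bars (n = 3) and axes that start at 0. *YUC4*, *LAX3*, *PIN7* and *PIN6* lie higher in the mutant, *PIN4* and *AFB2* lower, by less than the drop of *AT2G01422* (mutant mean 4.69% of wild type) next to *PIN4* and of *CYP81F3* (28.0%) next to *GH3.2*.

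A second called gene lay beside a member. *CYP81F3* (*AT4G37400*), a cytochrome P450 gene on the same strand 1969 bases past the end of *GH3.2*, had 2.07, 1.91 and 2.64 CPM in wild type and 0.825, 0.575 and 0.453 CPM in the mutant. All mutant values lay below wild type, with a log2 fold change of -1.28 (limma adjusted p = 0.0311, SE 0.21). The call was lost when wild-type replicate 1 or 3 or any 1 of the mutant replicates was left out (limma adjusted p = 0.0669 to 0.135), and the adjusted p ranged from 0.0157 to 0.135 over the 15 alternatives. No other called gene lay within 3000 bases of a member.

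Levels were compared between genes as CPM per kb of the longest annotated transcript. In wild type they ran from 69.6 ± 7.57 CPM per kb (SD, n = 3) for *ABCB19* to 0.442 ± 0.131 for *YUC1*. *ABCB19* lay above all other members in each wild-type sample. *AUX1* (52.4 ± 3.88), *ABCB1* (48.5 ± 3.31) and *TIR1* (45.8 ± 4.70) followed, with wild-type values that overlapped from *AUX1* to *ABCB1* and from *ABCB1* to *TIR1*, and each of their wild-type values exceeded every wild-type value of *AFB1* (33.5 ± 1.58), the next gene. From *AFB1* through *PIN3*, *AFB5*, *GH3.5*, *AFB3* and *TAA1* to *PIN7* the levels overlapped from each gene to the next, between 23.5 and 39.7 CPM per kb. Of the 32 steps between neighbours in the order, 8 had no overlap between the wild-type samples. At the lower end, 4 members (*PIN5*, *YUC4*, *GH3.1* and *YUC1*) had wild-type means under 1 CPM per kb. The 7 highest members were transporters or receptors, and the 4 *YUC* genes ranked 24, 27, 31 and 33. With the mean in place of the longest transcript length, 2 members (*TAR2* and *LAX1*) exchanged ranks and the highest mean remained that of *ABCB19*.

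**Figure D4:**
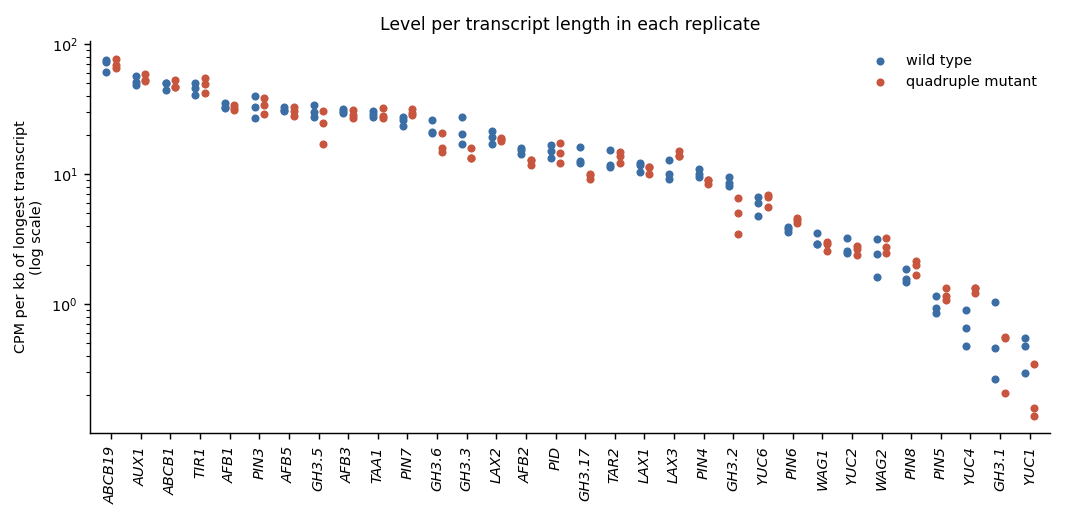
CPM per kb of the longest annotated transcript, on a log scale, for 32 members with values, ordered by their wild-type mean, with 1 point per replicate (3 per genotype). The levels run from 69.6 CPM per kb for *ABCB19* to 0.442 for *YUC1* in wild type, and the 2 genotypes separate for only some genes in the middle and lower range, such as *GH3.2* and *YUC4*.

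The other genes of the pathway were taken from 6 lists by role. In the lists for other synthesis genes (8 tested), other transport genes (17), other conjugation, release and oxidation genes (11), and other perception and repression genes (8), limma called 0, and 3, 2, 2 and 0 of them had an unadjusted p under 0.05. Over all tested genes 0.695% were called and 9.31% had an unadjusted p under 0.05. Symbols that did not match exactly 1 locus were left out. These were 4 of 16 in the third list, among them *DAO1* and *DAO2*, so no oxidation gene was tested. In the fourth list they were 6 of 14, among them *TPR1* to *TPR4*. *CYP79B2*, which diverts tryptophan to indole-3-acetaldoxime, had the smallest p of the synthesis list, with 10.9, 12.2 and 10.7 CPM in wild type and 15.9, 14.8 and 18.0 CPM in the mutant. Its mutant values all lay above wild type, with a log2 fold change of 0.51 (limma adjusted p = 0.139). *PILS3*, a PIN-like gene of the endoplasmic reticulum, had the smallest p of the transport list, at 22.7, 24.6 and 19.6 CPM in wild type and 14.5, 14.0 and 15.3 CPM in the mutant. The mutant values all lay below wild type, with a log2 fold change of -0.59 and a limma adjusted p of 0.0596, which was 0.0459 with scaling to column totals and 0.0498 with upper quartile scaling and ranged up to 0.251 over the alternatives. *IAR3*, an amidohydrolase that releases auxin from conjugates, led the third list at 0.29 (limma adjusted p = 0.478) and *TMK1*, a receptor-like kinase, the fourth at -0.18 (limma adjusted p = 0.651).

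The Aux/IAA and *SAUR* families, many of whose genes auxin is known to induce, had medians below 0. The Aux/IAA genes encode a family of repressors, many of which bind the receptors. Of 26 tested, limma called 2, each lower in the mutant, against 0.695% of all tested genes. At an unadjusted p under 0.05 there were 11, all lower (5.48% of all tested genes). In 12 the mutant values all lay below wild type (7.41% of all), and the median was -0.14. *IAA17* had 19.3, 19.4 and 22.6 CPM in wild type and 6.69, 9.20 and 10.4 CPM in the mutant. It fell with a log2 fold change of -1.19 (limma adjusted p = 0.0110, SE 0.16), and the call was lost without wild-type replicate 1 (limma adjusted p = 0.0567) or 3 (0.0564), with a lowest value of 0.0096 over the alternatives. *IAA14* had 5.11, 6.47 and 6.35 CPM in wild type and 3.39, 3.05 and 2.87 CPM in the mutant, with no overlap. It fell with a log2 fold change of -0.84 (limma adjusted p = 0.0477, SE 0.15), a call at the edge of the threshold that was lost in each of the 6 fits without 1 sample (limma adjusted p = 0.0914 to 0.191) and kept in 5 of the 15 alternatives. Of 55 tested *SAUR* genes limma called 0, against 0.695% of all tested genes. At an unadjusted p under 0.05, 10 were lower and 2 higher (21.8%, against 9.31% of all tested genes), and the median was -0.12. The genotypes did not overlap in 9 *SAUR* genes, 7 lower and 2 higher (16.4%, close to the 14.3% of all tested genes). *SAUR16* had the smallest p, with a log2 fold change of -0.69 (limma adjusted p = 0.0972). The study's own edgeR test, at an FDR under 0.05, listed more of these genes as lower in the mutant. They were *IAA1*, *IAA2*, *IAA14*, *IAA17*, *SAUR9*, *SAUR12* and *SAUR16*, with *PILS3* and *ABCB21* of the transport list.

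**Figure D5:**
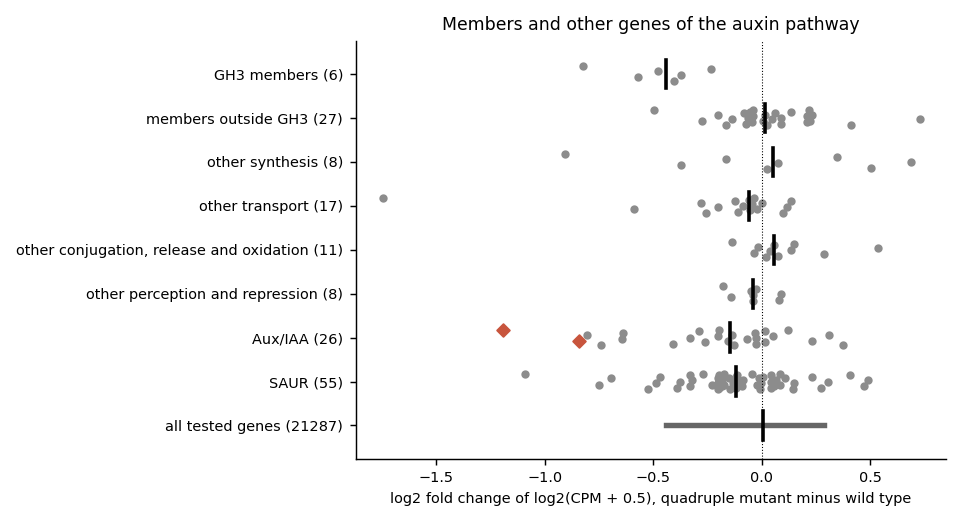
Log2 fold changes (quadruple mutant minus wild type, log2(CPM + 0.5) scale) of the members and of the 6 lists of other auxin genes, 1 point per gene with the number tested in brackets; black ticks are medians, red diamonds are called genes, and the bar shows the middle of all 21287 tested genes from the 5th to the 95th percentile. The median is -0.44 for the *GH3* members, -0.14 for Aux/IAA and -0.12 for *SAUR*, and 0.02 for the members outside *GH3*.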

How the data were processed

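RNA from 3 wild-type and 3 quadruple mutant inflorescence pools was analysed from the deposited table. The authors prepared directional libraries, mapped reads to TAIR version 10 with bowtie2, estimated expression with RSEM and deposited CPM scaled to an effective library size, not logged. The log2 fold changes, p-values and FDRs of the authors' own comparison (edgeR) stand in the same table and were not used in the fits here. Of 21801 rows, 2 had no gene and were dropped. In each sample 93.6% to 95.1% of the low values were multiples of 1 read (tolerance 0.1 read), which gave depth only, and no count test was run. Values were transformed as log2(CPM + 0.5) and tested by limma-trend (limma 3.58.1, R 4.3.3) in a model of genotype alone; a gene entered when 3 or more samples exceeded 0.5 CPM. Fold changes on this scale understate those of low genes. Members, lists and the rule for named genes (all members; full values for those past a limit, without overlap, or highest in their role) were chosen with earlier results of these data known. Symbols, positions and sequences came from TAIR10.1 (RefSeq), in which 21600 of 21799 genes had a position. Scaling, filter, pseudocount, left-out samples, a replicate block and the variance model were varied in 15 alternatives. The fit was tested on simulated data with known log2 changes, each larger in size than that of any member in the fit reported. That simulation therefore does not bear on the detection of changes as small as those of the members. A single member counted in the totals is not reported here by itself.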

Additional observations from a re-analysis of the deposited data

How the results depend on the processing

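No member was called by limma in any of the 15 alternatives, and 6 to 9 members had an unadjusted p under 0.05, against 8 in the fit reported. Over all genes the count of 148 calls was 61 without wild-type replicate 1, 83 without wild-type replicate 3, 73 without mutant replicate 1 and 76 without mutant replicate 2, a range of 61 to 159 when 1 sample was left out; the cause was not tested. The count of calls in the wider auxin lists, 2 in the fit reported, ranged from 0 to 2 when 1 sample was left out. It was 1 with a filter at 1 CPM and 1 with a pseudocount of 0.1 CPM. The genes called were not always the same. Without wild-type replicate 2 the 2 calls were *IAA17* and *NIT2* of the synthesis list (limma adjusted p = 0.0067), while *IAA14* lost its call. *NIT2* is not among the single genes counted below. With the replicate number as a block there were 64 calls, 63 of them shared with the fit without it, and 1 in the wider lists; *IAA14* and *CYP81F3* lost their calls and no other gene named with a call did. Same-numbered samples did not deviate together (correlations of -0.11, -0.16 and -0.10 over genes), so the number was not taken as a pairing. Of 659 values of single genes under the alternatives, 639 stayed on their side of the threshold, 18 lost and 2 gained a call, and none with a call changed sign; 10 members changed sign under some alternative, none of them with an unadjusted p under 0.05. The planned edgeR and DESeq2 alternatives were not run, because the share of low values that were whole reads fell short of nearly all. At these depths *YUC1*, *YUC4* and *GH3.1* rest on few reads.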

Other observations

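Within the mutant, replicate 3 had the highest and replicate 2 the lowest value for 5 of the 6 *GH3* genes (all but *GH3.17*), an order held by 18.7% of all tested genes. *ABCB21*, an auxin transporter outside the members that was chosen here after its values were seen, had 4.55, 8.82 and 4.14 CPM in wild type and 1.37, 0.575 and 2.37 CPM in the mutant, with no overlap and a log2 fold change of -1.75 (limma adjusted p = 0.102).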
